A study of Mus musculus with 36 samples.

Results

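Extracellular ATP, UDP and adenosine act through purinergic receptors on the cell surface, and ectonucleotidases on the same surface convert the nucleotides into one another. The messenger RNA levels of 10 such genes were examined in mouse hippocampus: the nucleotide receptors P2ry6, P2ry14, P2rx4, P2rx5 and P2rx7, the ectonucleotidases Entpd1 and Nt5e, and the adenosine receptors Adora1, Adora2a and Adora3. They were chosen by gene symbol from a table of 36172 gene entries, and all 10 were found. P2ry12 and P2ry13 were left out by that choice and are not described.

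All animals were Cx3cr1-NuTRAP mice, in which tamoxifen-activated cre driven by the Cx3cr1 promoter switches on a GFP tag on ribosomes. Cx3cr1 is active in microglia, the resident macrophages of the brain, and also in macrophages at its borders, so the tag is not restricted to microglia. Tagged ribosomes were pulled down with an anti-GFP antibody (translating ribosome affinity purification, TRAP), and part of the cleared homogenate, kept before the pulldown, served as input from the whole tissue. The groups were 10 young inputs with early induction (5 females and 5 males, 6 months), 12 old inputs with early induction (7 females and 5 males, 22 months), 7 old inputs with late induction (5 females and 2 males, 22 months) and 7 TRAP libraries from those same 7 late-induced animals. Every group carried the transgenes and was induced, so there were no cre-negative or uninduced libraries, and the ages at induction are not in the labels. TRAP libraries of young or early-induced animals were not analysed here, so age differences were read in whole tissue only.

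P2X receptors are cation channels opened by ATP, and P2Y receptors are G protein-coupled receptors for nucleotides. Entpd1 (CD39) removes phosphates from ATP and ADP to leave AMP, which Nt5e (CD73) turns into adenosine, the ligand of the adenosine receptors. Microglia use this system to sense damaged and active neurons, while in the hippocampus adenosine acting at Adora1 dampens transmitter release from neurons.

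Levels are given as CPM, the count of a gene scaled to library size over all 36 libraries, which held 12.9 to 20.4 M estimated counts each. A list of 20 microglia markers summed to 652 to 765 CPM in young inputs, 880 to 1059 CPM in old early-induced inputs, 939 to 1370 CPM in old late-induced inputs and 16940 to 27380 CPM in TRAP, and none of the 20 was at 0 in a whole group. The neuron list still summed to 7628 to 9115 CPM in TRAP, against 9285 to 10220 CPM in the inputs of the same animals, so the pulldown kept RNA of other cells. The summed level of a choroid plexus list ranged from 47.4 to 4142 CPM among inputs, with low and high libraries in each input group. The groups were not balanced in this list. Its median was only 109.5 CPM for the old animals induced early, while young animals reached 2018 CPM and those induced late 2031 CPM. The labels name no batch. Sample numbers and animal numbers in the labels run in separate blocks for old early-induced, old late-induced and young animals. A difference that goes with these blocks cannot be told apart from one of age or induction.

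The promoter sequences of members that were higher in TRAP are shown with that of Nt5e, which was lower, because the PU box GAGGAA is bound by the macrophage transcription factor PU.1. RefSeq (GRCm38.p6, the assembly that mm10 represents) gave windows from 250 bases before to 50 bases after the start for 7 of the 10 members. No window was available for P2rx5, Adora2a or P2ry6, the last of which was higher in TRAP too. In the windows below, capitals mark GAGGAA or, on the other strand, its reverse complement TTCCTC.
Entpd1, chr19:40659520-40659819, plus strand: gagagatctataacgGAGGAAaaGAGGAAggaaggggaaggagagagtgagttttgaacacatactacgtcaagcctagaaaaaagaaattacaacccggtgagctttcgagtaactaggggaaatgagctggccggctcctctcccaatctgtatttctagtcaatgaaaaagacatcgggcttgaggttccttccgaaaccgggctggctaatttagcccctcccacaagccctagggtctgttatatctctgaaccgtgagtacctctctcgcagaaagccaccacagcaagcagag
P2rx7, chr5:122643677-122643976, plus strand: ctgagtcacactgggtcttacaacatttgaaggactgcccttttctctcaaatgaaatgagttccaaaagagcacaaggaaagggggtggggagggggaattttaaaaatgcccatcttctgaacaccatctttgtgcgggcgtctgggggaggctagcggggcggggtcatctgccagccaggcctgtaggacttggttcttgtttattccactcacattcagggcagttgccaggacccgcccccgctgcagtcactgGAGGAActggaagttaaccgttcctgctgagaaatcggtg
Adora3, chr3:105904171-105904470, plus strand: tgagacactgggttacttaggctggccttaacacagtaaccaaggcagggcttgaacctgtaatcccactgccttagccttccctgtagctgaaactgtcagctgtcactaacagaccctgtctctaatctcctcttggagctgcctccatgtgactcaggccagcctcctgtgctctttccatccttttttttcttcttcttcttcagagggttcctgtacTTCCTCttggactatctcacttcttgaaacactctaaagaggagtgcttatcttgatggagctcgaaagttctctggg
P2rx4, chr5:122707294-122707593, plus strand: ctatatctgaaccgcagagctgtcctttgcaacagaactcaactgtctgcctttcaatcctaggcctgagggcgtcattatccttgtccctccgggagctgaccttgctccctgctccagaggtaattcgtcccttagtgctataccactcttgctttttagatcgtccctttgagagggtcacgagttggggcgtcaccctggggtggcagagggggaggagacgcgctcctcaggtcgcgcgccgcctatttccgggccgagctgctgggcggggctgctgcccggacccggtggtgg
Nt5e, chr9:88327359-88327658, plus strand: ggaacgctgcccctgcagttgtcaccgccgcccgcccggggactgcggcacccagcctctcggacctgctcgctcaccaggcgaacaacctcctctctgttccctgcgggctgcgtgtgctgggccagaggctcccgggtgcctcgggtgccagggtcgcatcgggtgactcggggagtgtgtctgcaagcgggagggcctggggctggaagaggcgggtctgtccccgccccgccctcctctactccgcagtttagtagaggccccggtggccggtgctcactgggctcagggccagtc
Entpd1 had this motif at -235 and -227 in the window of its second start, positions being those of the leftmost base counted from the start at +1, and none in the window of its other start. P2rx7 had 1 match at +11 in the window shown and 1 at +6, on the other strand, in the window of its other start. Adora3 had 1 at -28 on the other strand, and P2rx4 and Nt5e had none. P2ry14, which did not pass the test between TRAP and input, had a match in each of its 4 windows. Of these windows 2 overlap and hold the same match, at -29 from one start and -239 from the other. Adora1 had none in its 2 windows. In all, 4 of the 7 members with a window had a match, and 31.3% of 27025 genes and 28.3% of 32851 windows had one. The 6-letter word is common, and a match describes the letters in the window and not a bound site.

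Between TRAP and input the members separated into 3 sets. P2ry6, Adora3 and Entpd1 were 14.3 to 15.3 times higher in TRAP, P2rx7 and P2rx4 were higher by smaller factors, and Nt5e, P2rx5 and Adora1 were lower. The remaining pair, P2ry14 and Adora2a, did not pass the test. All 10 members passed the filter on low counts. In edgeR's quasi-likelihood test with Benjamini-Hochberg adjustment, 5 of 10 members were called higher at an adjusted p under 0.05, beside 30.4% of the 14596 genes tested, and 3 of 10 were called lower, beside 28.8%. The median log2 fold change was 0.82 for the members and -0.02 for all genes tested.

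**Figure D1:**
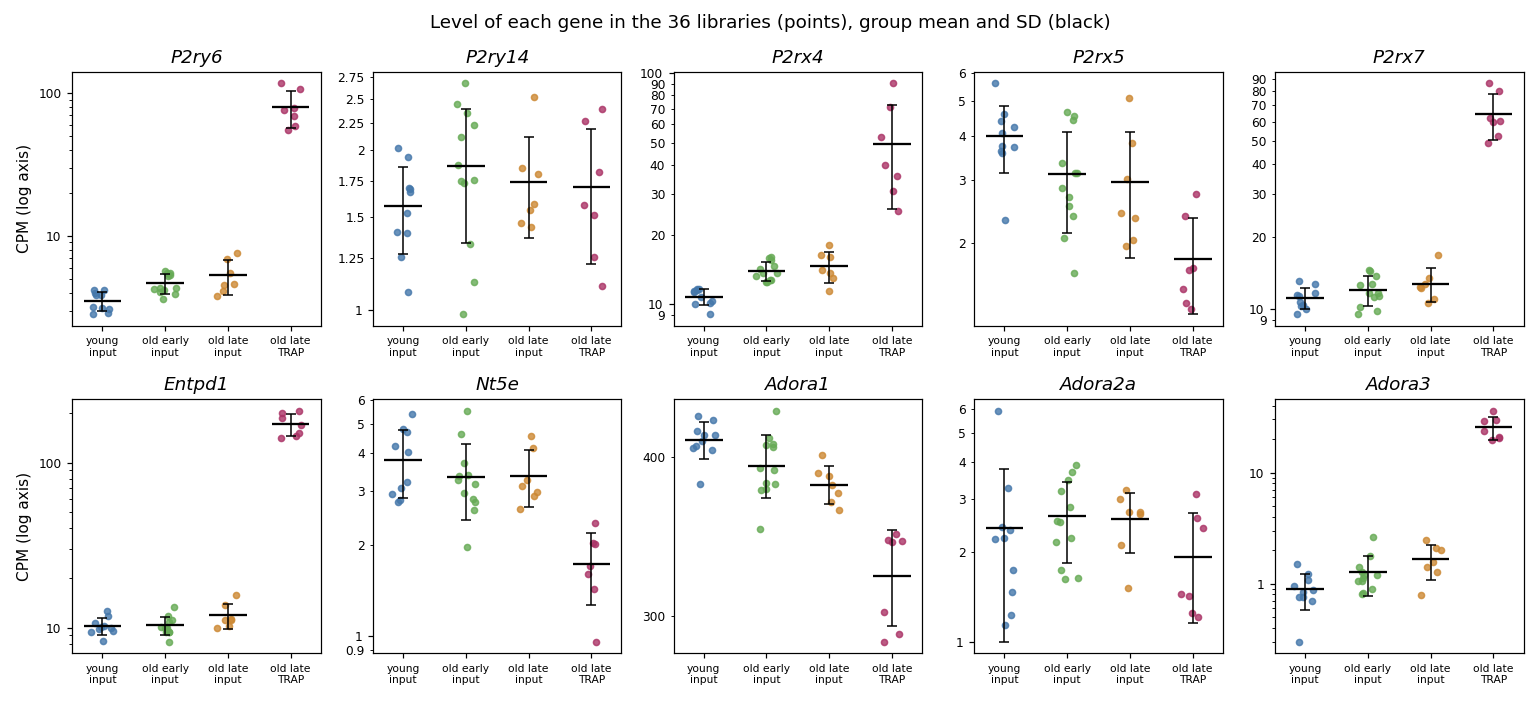
Level of each member in CPM (log axis) in young, old early-induced and old late-induced inputs and in old late-induced TRAP. Points are libraries, black bars are the mean and SD of a group. TRAP lies above every input for P2ry6, P2rx4, P2rx7, Entpd1 and Adora3.

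P2ry6, the UDP receptor linked to phagocytosis by microglia, lies on chromosome 7 from 100937634 to 100964366. It was at 3.79 to 7.58 CPM (median 4.63) in the 7 late-induced inputs and at 55.6 to 117 CPM (median 76.8) in their TRAP libraries. The lowest TRAP library was thus far above the highest input, and the groups did not overlap. On the log2 scale the difference was 3.91 ± 0.16 (SE), at an edgeR adjusted p of 1.02e-12.

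P2ry14, a receptor for UDP-glucose and other UDP-sugars, lies on chromosome 3 from 59114625 to 59130624. It had 1.43 to 2.52 CPM (median 1.58) in input and 1.11 to 2.40 CPM (median 1.58) in TRAP. The ranges overlapped, the log2 fold change was -0.05 ± 0.21 (SE) and the edgeR adjusted p was 0.846. P2ry14 lies inside Med12l on the opposite strand, whose median count over the libraries was 496, and without a stated strand setting the reads of the 2 genes cannot be told apart.

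P2rx4 and P2rx7, ATP-gated channels whose genes are neighbours on chromosome 5 (122707557 to 122729042 and 122643911 to 122691432), were both higher in TRAP. P2rx7, which needs high ATP to open and is known for driving release of interleukin-1 beta, had 10.7 to 16.8 CPM (median 12.4) in input and 48.8 to 86.4 CPM (median 60.6) in TRAP, a log2 fold change of 2.32 ± 0.12 (SE) with an edgeR adjusted p of 3.12e-11. P2rx4, known in microglia for its part in pain after nerve injury, had 11.4 to 18.1 CPM (median 14.01) in input and 25.4 to 90.2 CPM (median 40.1) in TRAP, a log2 fold change of 1.69 ± 0.20 (SE) with an edgeR adjusted p of 1.84e-06. For neither channel did the groups overlap. P2rx5, another channel of the family (chromosome 11, 73160530 to 73172687), went the other way, with 1.97 to 5.10 CPM (median 2.44) in input and 1.31 to 2.75 CPM (median 1.68) in TRAP. Its groups overlapped, with 5 of 7 TRAP libraries below every input, and its log2 fold change was -0.71 ± 0.24 (SE, edgeR adjusted p 0.0182).

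The ectonucleotidases moved in opposite directions. Entpd1 (chromosome 19, 40659794 to 40741602) had 10.0 to 15.8 CPM (median 11.1) in input and 141 to 207 CPM (median 169) in TRAP, with a log2 fold change of 3.83 ± 0.09 (SE) and an edgeR adjusted p of 3.82e-15. It ranked 14th of the 14596 genes by p. Nt5e (chromosome 9, 88327609 to 88372089) had 2.63 to 4.57 CPM (median 3.11) in input and 0.959 to 2.36 CPM (median 1.71) in TRAP, which is 18 to 35 counts. All 7 TRAP libraries were below every input, and the log2 fold change was -0.98 ± 0.20 (SE, edgeR adjusted p 0.000564). The lists of fibroblast and choroid plexus markers were lower in TRAP too, with 5 of 6 genes called lower in each and medians of -1.24 and -2.08. So were those of oligodendrocytes (8 of 8, median -1.34), their precursors (5 of 5, -1.50) and astrocytes (8 of 8, -0.46). Part of the mural (3 of 5 tested, -0.52), neuron (4 of 8, -0.17) and striatum (4 of 7, -0.36) lists was lower as well. The microglia, border macrophage and endothelial lists were higher. The part of these cell types in the Nt5e difference was not tested.

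The 3 adenosine receptors also differed from one another. Adora3, the receptor also known from mast cells, rose from 0.782 to 2.47 CPM (median 1.55) in input to 19.6 to 36.01 CPM (median 23.6) in TRAP, with no overlap, a log2 fold change of 3.94 ± 0.21 (SE) and an edgeR adjusted p of 4.8e-11. Its input level rested on 13 to 44 counts. The Adora3 entry (chromosome 3, 105870858 to 105924042) carries the Ensembl identifiers of Adora3 and of the overlapping gene Tmigd3, so its counts belong to both.

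Adora1, the abundant neuronal receptor (chromosome 1, 134199222 to 134235431), had 363 to 401 CPM (median 380) in input and 287 to 348 CPM (median 343) in TRAP. The groups did not overlap, but the size was small, with a log2 fold change of -0.25 ± 0.05 (SE) and an edgeR adjusted p of 0.000867. With upper quartile scaling, 34% of all calls were higher, against 51.4%. The median of all genes was then -0.17, against -0.02, and Adora1 was at -0.39. A change of scaling shifts all genes by about the same amount. The distance of Adora1 from that median therefore could not change and says nothing on whether its small difference depends on scaling. Adora1 overlaps Mybph on the opposite strand, which had a median of 7.81 counts. Adora2a, the receptor best known from the striatum (chromosome 10, 75316943 to 75334788), had 1.52 to 3.22 CPM (median 2.72) in input and 1.21 to 3.13 CPM (median 1.45) in TRAP. Its ranges overlapped and its log2 fold change of -0.39 ± 0.25 (SE) had an edgeR adjusted p of 0.182. Without TRAP replicate 7, which had the highest Adora2a level of the pulldowns, the log2 fold change was -0.57 and the adjusted p 0.0444.

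Within single animals the ratio of TRAP to input was, among the 5 higher members, most even for Entpd1 and least even for Adora3 and P2rx4. On log2 CPM with a prior count of 2, the Entpd1 ratio was 3.83 ± 0.15 (SD, n = 7) with a range of 3.69 to 4.14, and the P2ry6 ratio was 3.89 ± 0.18 with a range of 3.57 to 4.15. The Adora3 ratio was 3.89 ± 0.56 and ran from 3.21 to 4.71, with 13 to 44 counts in these inputs. The P2rx4 ratio was 1.63 ± 0.52 and ran from 0.88 to 2.31, with 190 to 316 counts in these inputs and 320 to 1169 in TRAP. The part of counting noise in either spread was not tested. The P2rx7 ratio was 2.31 ± 0.33. Each of these 5 members, Nt5e and Adora1 kept its direction in 7 of 7 animals, with a two-sided exact sign-flip p of 0.0156, the smallest that 7 animals can give. P2rx5 and Adora2a were lower in 6 of 7 animals (exact p 0.0312 each), and P2ry14 was higher in 3 of 7 (exact p 0.797). The ratio per animal was tested for the members only, so no share of all genes stands beside these counts.

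P2rx4, P2rx7 and P2ry6 shared their extremes in TRAP. Animals 3 and 5, both female, had the highest levels of all 3 genes: 71.0 and 90.2 CPM for P2rx4, 86.4 and 80.5 CPM for P2rx7, 117 and 108 CPM for P2ry6. Their TRAP libraries also had the highest summed microglia list, 27380 and 26930 CPM, against 16940 to 20290 CPM in the other 5. The 2 males had the lowest levels of the 3 genes and of Entpd1 in TRAP, and the lowest microglia sums, 17150 and 16940 CPM. Entpd1 was highest in animals 3 and 7, at 207 and 199 CPM. Adora3 was highest in animals 3 and 5, at 36.01 and 29.8 CPM, but was not lowest in both males. It had 28.8 CPM in animal 1, a male, and its lowest level, 19.6 CPM, was in animal 4, a female. With 2 males, sex was not tested within TRAP.

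**Figure D2:**
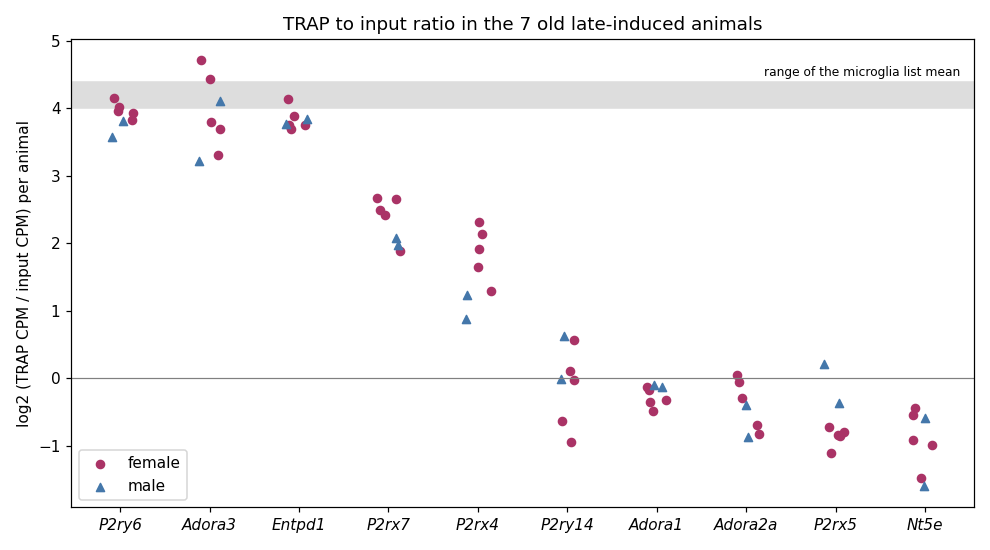
Log2 ratio of TRAP to input CPM for each of the 7 old late-induced animals (circles female, triangles male), with the range of the mean ratio of the 20 microglia markers in grey (4.00 to 4.39). P2ry6 and Entpd1 lie in or under the grey band (3.57 to 4.15 and 3.69 to 4.14), Adora3 spreads from below to above it (3.21 to 4.71), P2rx7 and P2rx4 lie well under it, and the other 5 members near or below 0.

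The higher members were also set against the microglia list, which shifts all genes by about the same amount and so leaves their order as it was. The mean log2 ratio of the 20 markers was 4.18 per animal. P2ry6, Entpd1, P2rx7 and P2rx4 were below the list mean in 7 of 7 animals and Adora3 in 4 of 7. With a prior count of 0.5 instead of 2, P2ry6 was below the list mean in 6 of 7, and the other counts were the same. A fit in which each library was scaled by its microglia list level gave log2 differences of -2.52 ± 0.15 (SE) for P2rx4, with an edgeR adjusted p of 2.32e-14, and -1.87 ± 0.12 for P2rx7, with an adjusted p of 1.54e-13. The shortfalls of Entpd1 (-0.33 ± 0.13, adjusted p 0.0188) and P2ry6 (-0.27 ± 0.12, adjusted p 0.0264) were small, and Adora3 did not differ past the threshold (-0.24 ± 0.18, adjusted p 0.195). That scaling calls 4 of the 5 members lower, beside 98.1% of all genes, since few genes are enriched as strongly as the markers. Border macrophage markers were higher in TRAP too (7 of 7 called, median log2 fold change 3.81), as were 6 of 7 endothelial markers (median 1.07). Their part in the levels of these receptors was not tested.

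With age, P2ry6 and P2rx4 rose in whole hippocampus in both old groups, Adora3 rose in the late-induced old group, and Adora1 fell slightly in that group. The 2 age comparisons share the young inputs, so their values stand side by side and do not support each other. Between old early-induced and young inputs, 2 of 10 members were called higher, beside 13% of 14948 genes, and 0 were called lower in edgeR, beside 12.6%. At an unadjusted p under 0.05 stood 5 of 10 members in either direction, beside 5629 of the 14948 genes. The lower ones among these 5 were P2rx5 and Adora1. DESeq2 and limma voom called 0 lower there too. Between old late-induced and young inputs, 3 of 10 members were called higher, beside 17%, and 1 of 10 lower, beside 17.5%. These shares are not far from those of all genes. The members' median log2 difference was 0.12 and 0.18 in the 2 comparisons, against 0.01 in both for all genes. In bulk tissue, a change in the number of cells of a type and a change in RNA per cell cannot be told apart.

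P2rx4 gave the clearest separation. The young inputs had 9.06 to 11.7 CPM (median 11.02), the old early-induced inputs 12.5 to 15.98 CPM (median 13.7) and the old late-induced inputs 11.4 to 18.1 CPM (median 14.01). All 12 old early-induced libraries and 6 of 7 old late-induced libraries were above every young one. The log2 differences were 0.37 ± 0.07 (SE, edgeR adjusted p 0.000183) and 0.43 ± 0.08 (SE, edgeR adjusted p 9.49e-05).

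P2ry6 had 2.83 to 4.20 CPM (median 3.50) in young, 3.64 to 5.68 CPM (median 4.31) in old early-induced and 3.79 to 7.58 CPM (median 4.63) in old late-induced inputs. The ranges overlapped, with 8 of 12 and 5 of 7 old libraries above every young one. The log2 differences were 0.41 ± 0.12 (SE, edgeR adjusted p 0.0122) and 0.59 ± 0.14 (SE, edgeR adjusted p 0.00146). In females alone the first became 0.47 with an adjusted p of 0.0935, on fewer libraries.

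Adora3 had 0.302 to 1.50 CPM (median 0.858) in young, 0.814 to 2.60 CPM (median 1.15) in old early-induced and 0.782 to 2.47 CPM (median 1.55) in old late-induced inputs, on 5 to 44 counts per library. The groups overlapped, with 4 of 7 late-induced libraries above every young one. The log2 difference was 1.00 ± 0.24 (SE, edgeR adjusted p 0.0019) in the late-induced and 0.53 ± 0.22 (SE, edgeR adjusted p 0.0693) in the early-induced comparison. Without young replicate 2, which had the highest Adora3 level of the young inputs, the latter was 0.61 with an adjusted p of 0.0471.

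Adora1 had 381 to 430.4 CPM (median 414) in young, 351 to 435 CPM (median 391) in old early-induced and 363 to 401 CPM (median 380) in old late-induced inputs. Its log2 difference was -0.11 ± 0.03 (SE, edgeR adjusted p 0.00979) in the late-induced comparison, where 4 of 7 old libraries were below every young one, and -0.09 with an adjusted p of 0.122 in females alone. In the early-induced comparison it was -0.06 ± 0.03 (SE, edgeR adjusted p 0.111), which became -0.08 (adjusted p 0.0325) without old early-induced replicate 11 and -0.07 (adjusted p 0.032) with the choroid plexus list level as a covariate. Of the 8 neuron markers, 3 were called lower and 0 higher in the late-induced comparison (median -0.05), and 0 lower and 1 higher in the early-induced one (median -0.03). Their part in the Adora1 difference was not tested.

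Entpd1 and P2rx7, although much higher in TRAP, did not pass the test with age. Entpd1 had 8.31 to 12.6 CPM (median 10.0) in young, 8.26 to 13.5 CPM (median 10.0) in old early-induced and 10.0 to 15.8 CPM (median 11.1) in old late-induced inputs. Its log2 differences were 0.01 ± 0.08 (SE, edgeR adjusted p 0.97) and 0.20 ± 0.09 (SE, edgeR adjusted p 0.101). The latter became 0.24 with an adjusted p of 0.0379 without young replicate 10, and 0.23 with an adjusted p of 0.038 with the choroid plexus covariate. It was 0.12 with an adjusted p of 0.324 without old late-induced replicate 3, which had the highest Entpd1 level of its group, and 0.33 with an adjusted p of 0.0578 in females alone. P2rx7 had 9.53 to 13.1 CPM (median 11.03), 9.52 to 14.6 CPM (median 11.7) and 10.7 to 16.8 CPM (median 12.4) in the same order, with log2 differences of 0.11 ± 0.08 (adjusted p 0.351) and 0.19 ± 0.10 (adjusted p 0.117).

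**Figure D3:**
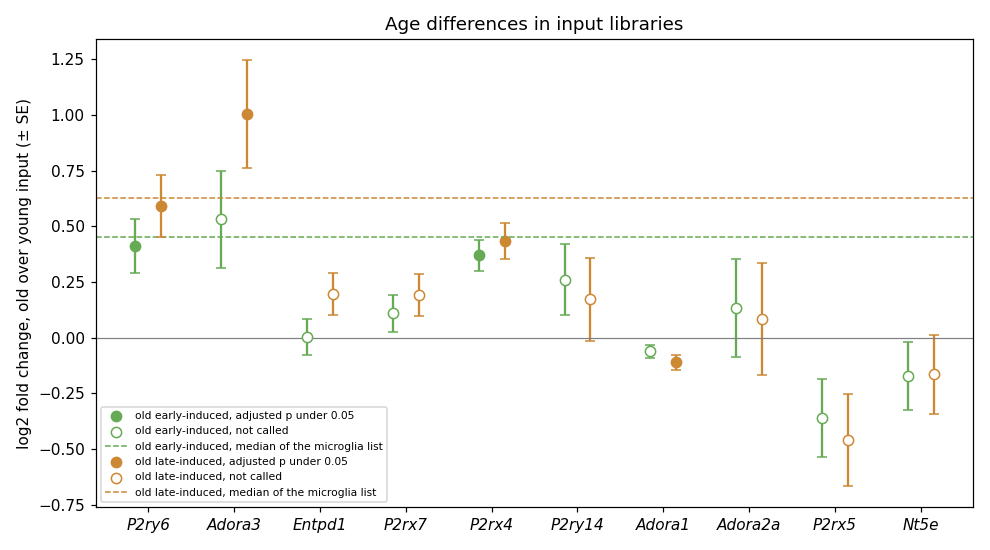
Log2 difference (± SE) between old and young inputs for each member, for old early-induced (green) and old late-induced (orange) animals, which share the young inputs. Filled points have an adjusted p under 0.05, and dashed lines give the median of the 20 microglia markers (0.45 and 0.63). P2ry6, P2rx4, P2rx7 and Entpd1 lie below the dashed line of their comparison in both, and Adora3 above it.

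Oligodendrocyte markers rose with age, with 7 of 8 called higher in the early-induced comparison (median log2 difference 0.35) and 8 of 8 in the late-induced one (median 0.56), and their part in the members' differences was not tested. The microglia list rose with age as well, with 18 of 20 genes called higher in the early-induced comparison (median log2 difference 0.45) and 20 of 20 in the late-induced one (median 0.63). Relative to that list, Entpd1 was lower in old inputs by -0.44 ± 0.08 (SE, edgeR adjusted p 5.18e-06) and -0.44 ± 0.09 (SE, edgeR adjusted p 5.05e-05) in the early- and late-induced comparisons. P2rx7 was lower by -0.34 ± 0.10 (adjusted p 0.00163) and -0.44 ± 0.11 (adjusted p 0.000548), but the first was -0.20 with an adjusted p of 0.052 when the median of the list replaced its mean. P2rx4 was at -0.08 ± 0.07 (adjusted p 0.247) and -0.21 ± 0.08 (adjusted p 0.0124), and the second was -0.08 (adjusted p 0.369) with the median of the list and -0.09 (adjusted p 0.277) with a list without the C1q genes, Tyrobp and Ctss. P2ry6 (-0.04 and -0.07) and Adora3 (0.08 and 0.36) did not differ past the threshold from the list. The counts were 2 of 5 members lower, beside 82.8% of all genes, and 3 of 5, beside 85.3%. This scaling is by the markers' RNA and is not a measure per cell, and it holds for these inputs only in so far as the markers keep their level per cell, which was not tested.

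**Figure D4:**
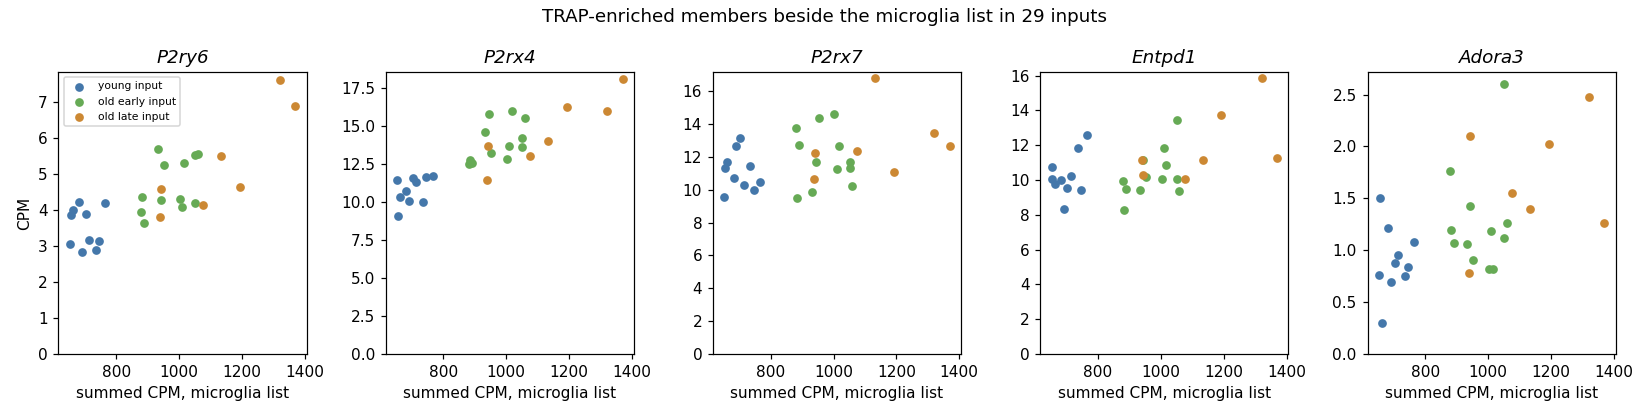
CPM of the 5 members higher in TRAP against the summed CPM of the 20 microglia markers in each of the 29 inputs, coloured by group. P2rx4 and P2ry6 lie higher where the sum is higher, while Entpd1 and P2rx7 in old early-induced inputs span about the same levels as in young inputs at larger sums.

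The members with low input levels and no enrichment did not pass the test with age in either comparison. P2rx5 had 2.33 to 5.61 CPM (median 3.91) in young, 1.65 to 4.65 CPM (median 3.01) in old early-induced and 1.97 to 5.10 CPM (median 2.44) in old late-induced inputs, with log2 differences of -0.36 ± 0.18 (SE, edgeR adjusted p 0.129) and -0.46 ± 0.21 (SE, edgeR adjusted p 0.0848). The second passed when only the compared groups were fitted (-0.50, adjusted p 0.0469), without old late-induced replicate 5 (-0.63, adjusted p 0.0191) or without young replicate 9 (-0.55, adjusted p 0.0341). In females alone it was -0.28 with an adjusted p of 0.465. Nt5e had medians of 3.62, 3.22 and 3.11 CPM and log2 differences of -0.17 ± 0.15 and -0.17 ± 0.18. P2ry14 had medians of 1.60, 1.82 and 1.58 CPM and log2 differences of 0.26 ± 0.16 and 0.17 ± 0.19. Adora2a had medians of 2.22, 2.54 and 2.72 CPM and log2 differences of 0.13 ± 0.22 and 0.08 ± 0.25, with opposite signs in females alone (-0.21 and -0.35).

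Induction age and sex gave 0 called members in edgeR. Between old late-induced and old early-induced inputs 0.0334% of all genes were called in either direction. At an unadjusted p under 0.05 stood 2 of 10 members, beside 1736 of 14948 genes. These were Adora3 (0.47 ± 0.23 on the log2 scale, p 0.0445, adjusted p 0.414) and Entpd1 (0.19 ± 0.09, p 0.0383, adjusted p 0.398). Between males and females 0.174% of genes were called. The same 2 members had an unadjusted p under 0.05, beside 1632 of 14948 genes. Adora3 was higher in males (0.43 ± 0.19, p 0.0278, adjusted p 0.405) and Entpd1 lower in males (-0.15 ± 0.07, p 0.0481, adjusted p 0.455). DESeq2 and limma voom called 0 members in both comparisons.

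Compared per kb of exon, Adora1 was the most abundant member in every group. In young inputs it had 71.2 ± 2.39 CPM per kb (SD, n = 10), and P2rx7 followed with 1.86 ± 0.20 and Entpd1 with 1.84 ± 0.22, which did not differ beyond their spread. P2rx5 (1.66 ± 0.35) and P2rx4 (1.53 ± 0.13) were also within their spread, P2ry6 had 1.22 ± 0.19, and Nt5e, Adora3 and P2ry14 had 0.441, 0.149 and 0.142 on average. In TRAP, Adora1 still led with 55.7 ± 4.83 CPM per kb (SD, n = 7). Entpd1 (30.7 ± 4.72) and P2ry6 (27.9 ± 8.11) came next, within their spread, then P2rx7 (10.8 ± 2.34) and P2rx4 (7.04 ± 3.35). Adora3 had 4.25 ± 1.01 over 6.03 kb, the summed exons of Adora3 (3.73 kb) and Tmigd3 (2.3 kb). How the counts of the entry divide between these 2 genes is not known. The order of Adora3 against P2rx4 is therefore not given, and its input levels carry the same limit. P2rx5, Adora2a, Nt5e and P2ry14 averaged under 1 CPM per kb. A high level in TRAP therefore did not go with enrichment for Adora1, whose level was lower than in input. Lengths are the union of annotated exons, and which isoforms were counted is not given in the sources used here.

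Of 24 other genes that release, degrade, transport or sense nucleotides and adenosine, 20 passed the filter on low counts between TRAP and input, with 6 called higher, beside 30.4% of all genes, and 9 lower, beside 28.8%. The 6 higher calls include 2, named below, that passed the filter through their TRAP level, so their share is not read against that of all genes. The higher genes, by log2 fold change, included the nucleoside transporters Slc29a3 (2.64 ± 0.11) and Slc29a1 (1.54 ± 0.09), the ATP and UTP receptor P2ry2 (1.39 ± 0.24) and the nucleotide pyrophosphatase Enpp1 (0.80 ± 0.23, all SE). The other 2, the vesicular nucleotide transporter Slc17a9 (3.07 ± 0.41) and the ATP-gated channel P2rx1 (3.02 ± 0.44), did not pass the filter in the fit of inputs and passed here through their TRAP level, so their calls carry no weight as a count. They had 0 to 9 and 0 to 15 counts in the late-induced inputs. Slc29a3 was abundant, with 13.3 to 20.2 CPM in input and 75.2 to 147 CPM in TRAP. The lower genes with a log2 fold change of at least 0.5 in size were the adenosine receptor Adora2b (-1.13 ± 0.23), the channel Panx2 (-0.68 ± 0.08), the ATP-degrading enzyme Entpd2 (-0.63 ± 0.13), the transporter Slc29a4 (-0.55 ± 0.21) and the ADP receptor P2ry1 (-0.54 ± 0.23, edgeR adjusted p 0.0499). With age, 18 of the 24 passed the filter, of which 1 and 2 were called higher in the early- and late-induced comparisons, beside 13% and 17% of all genes. Adk, the kinase that removes adenosine, was the only one called between old early-induced and young inputs (0.21 ± 0.05, edgeR adjusted p 0.0013), and between old late-induced and young inputs Adk (0.15 ± 0.05, adjusted p 0.0266) and Enpp1 (0.67 ± 0.20, adjusted p 0.00842) were called, all higher.

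Over the 29 inputs, after each group's mean was removed, the genes whose log2 CPM was most like that of P2rx4 were C1qb (Pearson r 0.74), Ctss (0.73) and Capns1 (0.72). C1qb and Ctss are also in the microglia list. Adora1 was most like Enc1 (0.78), Dkk3 (0.75) and Mras (0.74), and Nt5e most like Kank1 (0.71), Bgn (0.70) and Ostf1 (0.69). P2ry6 was most like Trp53bp2 (0.71), B2m (0.69) and Litaf (0.68). Entpd1 was most like Thumpd2, Slmap and Rb1 (up to 0.65), and P2rx7 most like Zkscan1, Tug1 and Rnf146 (up to 0.65). With the mean of the microglia list over the same 29 inputs, r was 0.68 for P2rx4, 0.58 for Entpd1, 0.56 for P2ry6, 0.20 for Adora3 and 0.08 for P2rx7. Among the members not higher in TRAP it was 0.34 for P2rx5, 0.29 for Adora1, 0.11 for P2ry14, -0.04 for Nt5e and -0.10 for Adora2a. With the mean of the neuron list, r was 0.62 for Adora1, 0.38 for Entpd1, 0.25 for P2rx7 and -0.498 to -0.035 for the other members. With the mean of a list of striatum markers, r was 0.54 for Adora2a and -0.271 to 0.088 for the other members. The most similar genes were picked as the highest among 13051 candidate genes measured in the same libraries, which differ in makeup and depth. Neither their values nor those with the marker lists carry a test.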

How the data were processed

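Libraries of polyA RNA came from 29 hippocampal inputs and 7 TRAP pulldowns. The authors deposited estimated counts per gene, of which 77.4% of the nonzero values are not whole. The build is mm10 and DESeq2 was used, per the submitters' processing notes. The aligner, the counter and its strand setting are not given in the sources used here, so values of overlapping genes are uncertain. Of the gene identifiers, 32891 matched RefSeq GRCm38.p6, and coordinates are those of the deposited table.

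Counts were rounded and tested with edgeR 4.0.16 in R 4.3.3 (filterByExpr by group with a minimum count of 10, TMM, glmQLFit and glmQLFTest, Benjamini-Hochberg over all genes tested, calls at an adjusted p under 0.05). TRAP against input was fitted on 14 libraries with sex as covariate, and the age, induction and sex contrasts in 1 fit of the 29 inputs with group and sex. Standard errors come from the quasi-likelihood F statistic. In fits relative to microglia, the offset included the mean log2 CPM of 20 markers. The labels' animal numbers pair TRAP with input. After group means were subtracted, the 2 libraries of an animal correlated at 0.308 to 0.47 over genes in the 7 pairs, and libraries of different animals at a median of -0.085. Libraries of a group are taken as separate animals from their labels.

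All 10 members are named in each comparison, pathway genes where called with a log2 fold change of at least 0.5 in size and an average log2 CPM over 0, and the 3 most similar genes of a member are given as description. Exon lengths are from GENCODE vM21. The members and lists were chosen with earlier results of these data known. Alternatives were other scalings, no filter, DESeq2 1.42.0, voom of limma 3.58.1, other covariates and groups, females only, the animal block, other marker references and each library left out. The choroid plexus covariate was added after seeing the data. The fits were tested on simulated data with known changes.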

Additional observations from a re-analysis of the deposited data

Results flagged for a closer look

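In 30 sets of 7 or 10 libraries (each member in the young inputs, the old late-induced inputs and TRAP), 3 had an extreme library by Dixon's ratio, where chance alone would give about 1.5. The group of 12 libraries was too large for this check. Adora1 was lowest in young replicate 2, at 381 CPM, with the next library at 405 CPM. Adora2a was highest in young replicate 6, at 5.93 CPM, with the next at 3.27 CPM, and that library also had the highest summed striatum list of the young inputs, 227 CPM against 138 to 190.4 CPM in the others. P2ry14 was highest in old late-induced input replicate 5, at 2.52 CPM (44 counts), with the next at 1.85 CPM.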

How the results depend on the processing

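Over the alternatives run for single members, 1692 values kept their direction and their side of the threshold, 9 newly passed it, 5 no longer passed it and 49 changed sign. No value whose main call passed the threshold changed sign. Members higher between old early-induced and young inputs numbered 1 in females only, against 2. Members lower there numbered 1 with the choroid plexus list level as covariate, and 0 to 1 when each library was left out. Members lower between old late-induced and young inputs numbered 2 with only the groups compared, 0 in females only and 1 to 2 when each library was left out, against 1. Members lower relative to the microglia list in the early-induced comparison numbered 1 with the median of the list, against 2.

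The values that changed sign were all uncalled. For Adora2a they were -0.206 and -0.347 with age in females only, -0.041 to 0.345 with late induction against young when each library was left out, and -0.167 to 0.053 between old groups. For Entpd1 the early-induced difference was -0.022 with the choroid covariate and -0.033 to 0.05 with each library left out. For Nt5e the difference between old groups was -0.128 with that covariate and -0.11 to 0.113 with libraries left out, and between sexes -0.131 to 0.014. For P2ry14 the sex difference was -0.002 in voom and -0.034 to 0.084 with libraries left out, and the TRAP difference -0.17 to 0.069. P2rx5 between old groups was 0.116 in females only, and P2ry6 between sexes 0.023 in the early-induced groups only. Relative to the microglia list, P2ry6 was 0.096 and 0.071 (early- and late-induced) with the median of the list and 0.055 in both without the C1q genes, Tyrobp and Ctss, and P2rx4 early-induced was 0.059 and 0.014. The cause was not tested.

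With the animal as replicate block, 5 members were higher and 3 lower in TRAP, as without it, and no member's call changed. Over all genes, calls between old groups were 58 in DESeq2, 0 with only the groups compared, 182 in females only and 0 to 164 with each library left out, against 5. Calls between sexes were 64 in DESeq2 and 12 in the early-induced groups, against 26, and in females only age calls were 1198 and 2787, against 3826 and 5151. Adora3, P2ry14, Nt5e, P2rx5 and Adora2a had few counts in input, which limits what could be detected for them.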
